A study of Mus musculus with 5 samples.

Results

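Dendritic cells were examined in single-cell RNA-seq libraries of 5 mouse synovial sarcoma (SyS) tumours. A cell was counted as dendritic when it held UMIs (unique molecular identifiers, each standing for 1 captured RNA molecule) of at least 2 of the 7 genes *Flt3*, *Xcr1*, *Clec9a*, *Cd209a*, *Ccr7*, *Fscn1* and *Siglech*. It also needed at least 3 UMIs summed over the MHC class II genes *H2-Aa*, *H2-Ab1* and *Cd74*, at most 3 over the complement genes *C1qa*, *C1qb* and *C1qc* that mark macrophages, fewer than 5 of *Adgrb3*, which marks the tumour cells here, and no UMI of the T cell gene *Cd3e*. Of 42516 cells with at least 750 detected genes and at most 25% mitochondrial UMIs, 216 passed. The members were thus selected on measured values of these genes, whose levels are described below without a test. Only the shares of cells drawn with them were compared between labels.

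All 5 tumours came from *hSS2* mice, in which a Cre-activated human *SS18::SSX2* transgene, the fusion oncogene of this cancer, was switched on by TATCre protein injected into a limb early in postnatal life. Every sample carried the fusion and there was no untreated tissue. By the histology in the labels, 2 tumours were biphasic (BP, spindle cells with an epithelial component), 1 monophasic (MP, spindle cells), 1 MP+BP and 1 PD+MP, where PD stands for poorly differentiated. Both BP labels share a leading number whose meaning was not stated, so they may come from 1 animal, and groups of 1 tumour have no replicate error.

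Dendritic cells take up antigen, load peptides onto MHC molecules and present them to T cells. Conventional type 1 cells, marked by *Xcr1* and *Clec9a*, are known for cross-presentation to CD8 T cells, and type 2 cells, which include *Cd209a*-bearing cells, present mainly to CD4 T cells. On maturation both switch on the chemokine receptor *Ccr7*, which guides them to lymph nodes, while plasmacytoid cells, marked by *Siglech*, are a separate kind known for type I interferon.

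Some of the defining genes recurred together in the same cells and others did not. *Xcr1* (GRCm38 chr9:123852315-123862029) and *Clec9a* (chr6:129408862-129424763) occurred together in 74 members, *Ccr7* (chr11:99144196-99155077) and *Fscn1* in 32, and *Cd209a* (chr8:3743397-3748984) and *Ccr7* in 28, whereas no member held both *Xcr1* and *Cd209a*. A *Flt3* UMI, from the receptor that drives dendritic development, was found in 74.5% of members, against 0.788% of 24234 *Adgrb3*-positive tumour cells, although the tumour cells were deeper (median 10999.5 against 6602 UMIs per cell). *Fscn1* went the other way, at 18.5% of members and 63.8% of tumour cells, so by itself it does not mark a dendritic cell in this tissue. Exactly 2 markers were seen in 105 members and 3 in 93, and 138 further cells were kept out only because they showed 1 marker. On the macrophage side 196 members had no C1q UMI and 20 had 1 to 3, while 24 cells were kept out by C1q alone, 0 of them at exactly 4 UMIs and 7 at 4 to 9.

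Dendritic cells made up 0.404% of kept cells in BP replicate 1, 0.0677% in BP replicate 2, 0.609% of those in MP, 0.515% for MP+BP and 1.03% for PD+MP. These shares stand for 27, 7, 47, 48 and 87 cells. BP replicate 2 was the poorest in dendritic cells. It had the highest number of macrophages (978), but also the highest number of kept cells (10342). Per 100 macrophages (3585 cells with at least 10 C1q UMIs), the tumours held 3.19, 0.716, 10.4, 9.28 and 11.03 dendritic cells in the same order. Both BP tumours lay below the other 3 on this ratio and on the share of cells with a *Ptprc* (CD45) UMI, which was 2.15%, 0.577%, 6.03%, 7.78% and 7.76%.

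The mean share of kept cells was 0.329% ± 0.233 (SD, n = 3) in the tumours with BP in the label and 0.819% ± 0.297 (SD, n = 2) in the others. The difference of -0.490 percentage points gave p = 0.1 in a two-sided exact permutation test over tumours, the smallest value that 3 against 2 allow. On the *Ptprc* denominator the difference was -3.40 points (exact permutation p = 0.4), since MP+BP then joined MP and PD+MP. Fewer cells in a tumour and fewer recovered in dissociation cannot be told apart.

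**Figure D1:**
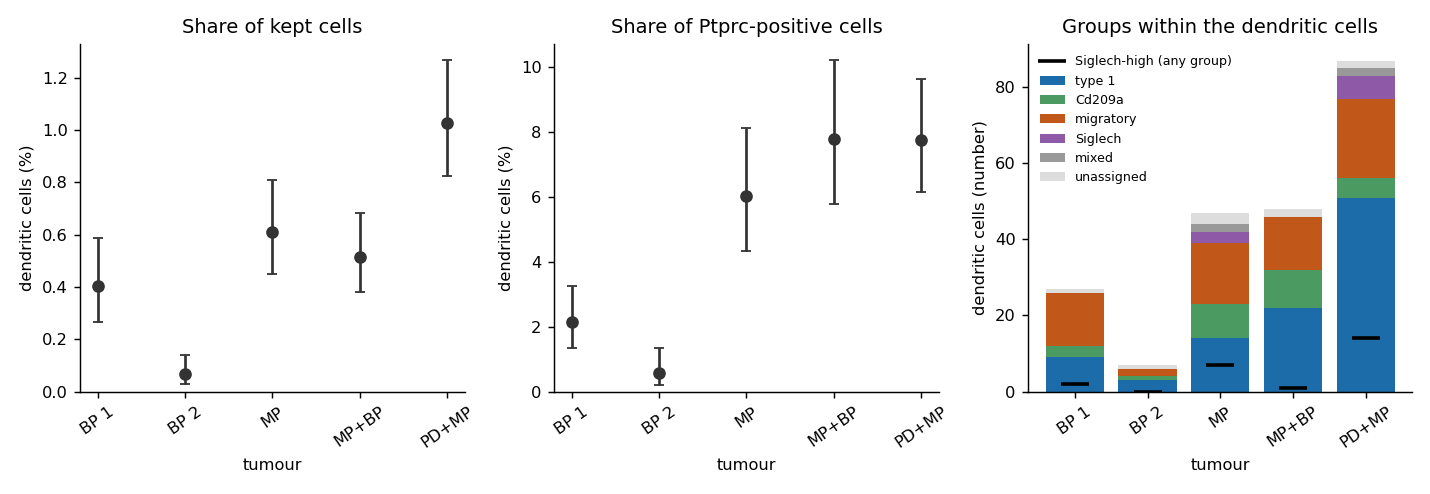
Dendritic cells per tumour as a percentage of kept cells (left) and of Ptprc-positive cells (middle), with 95% exact Clopper-Pearson intervals that cover counting error only, and the number of cells in each group (right). BP replicate 2 is lowest in both panels, at 0.0677% and 0.577%; the black ticks mark the Siglech-high cells, 14 of which lie in PD+MP.

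Within the 216 cells, 99 were type 1 (*Xcr1* or *Clec9a* without *Cd209a*), 67 migratory (*Ccr7* with *Fscn1*, or at least 2 *Ccr7* UMIs), 28 *Cd209a*-positive without *Xcr1* or *Clec9a*, 9 *Siglech*-positive only, 4 mixed and 9 unassigned. Ordered as BP replicate 1, BP replicate 2, MP, MP+BP and PD+MP, the tumours held 9, 3, 14, 22 and 51 type 1 cells. Migratory cells numbered 14, 2, 16, 14 and 21, and were thus the largest group in BP replicate 1 and in MP. The name stands for this *Ccr7* rule only, and 12 of the 16 in MP held no *Fscn1*. The *Cd209a* group numbered 3, 1, 9, 10 and 5. Tumours with and without BP in the label differed by -3.53 percentage points in the type 1 share, by 2.96 in the *Cd209a* share and by 7.44 in the migratory share, with exact permutation p of 1.0, 0.6 and 0.7 and, adjusted over the 4 groups compared, p of 1.0, 0.933 and 0.933. Each of these differences turned sign when 1 tumour was left out, the type 1 share to 0.141 points without BP replicate 1 and 10.9 without PD+MP, the *Cd209a* share to -3.74 without PD+MP and the migratory share to -0.221 without BP replicate 1. The *Siglech*-only share was 0 in the 3 BP-labelled tumours and 6.64% on average in the other 2 (exact permutation p = 0.1, adjusted p = 0.4), a value that depended on how the groups were drawn, as described next.

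Plasmacytoid genes were not confined to the *Siglech*-only group. A split chosen after these values were seen, taking the cells with at least 2 *Siglech* UMIs and no *Xcr1* first, gave 24 *Siglech*-high cells (11.1% of members, Clopper-Pearson 7.25% to 16.1%). Of these, 7 had been counted as *Siglech*-only, 7 as type 1, 6 as *Cd209a* and 4 as mixed. They lay in BP replicate 1 (2 cells), MP (7), MP+BP (1) and PD+MP (14), and BP replicate 2 had 0 among its 7 dendritic cells, which allows a share of up to 41.0% (upper Clopper-Pearson limit). BP-labelled tumours thus held 3 such cells in all.

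The 24 cells shared genes that the split had not used. *Tcf4*, the transcription factor that sets plasmacytoid identity, was found in 24 of 24 with 315 UMIs, as was *Bst2*, an interferon-induced surface protein, with 555. *Bst2* was not confined to these cells. With them left out it still passed the low-count filter for type 1 against *Cd209a* cells. The homing receptor *Ccr9* was in 24 of 24 against 15 of the 192 other dendritic cells. *Cox6a2* was in 23 and *Ly6d* in 15, and neither had a UMI in the other 192. *Zbtb46*, the factor of conventional dendritic cells, was in 0 of the 24 and in 94 of the 192, and *S100a4* was in 0 and 92. The endosomal RNA sensor *Tlr7* was in 10 against 1. Class II levels were low, with a median of 24.5 UMIs over the 3 rule genes against 182 in the other members, at median depths of 5045.5 UMIs per *Siglech*-high cell and 6602 over all members. A single *Siglech* UMI did not mark this pattern, since 40 members held at least 1.

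**Figure D2:**
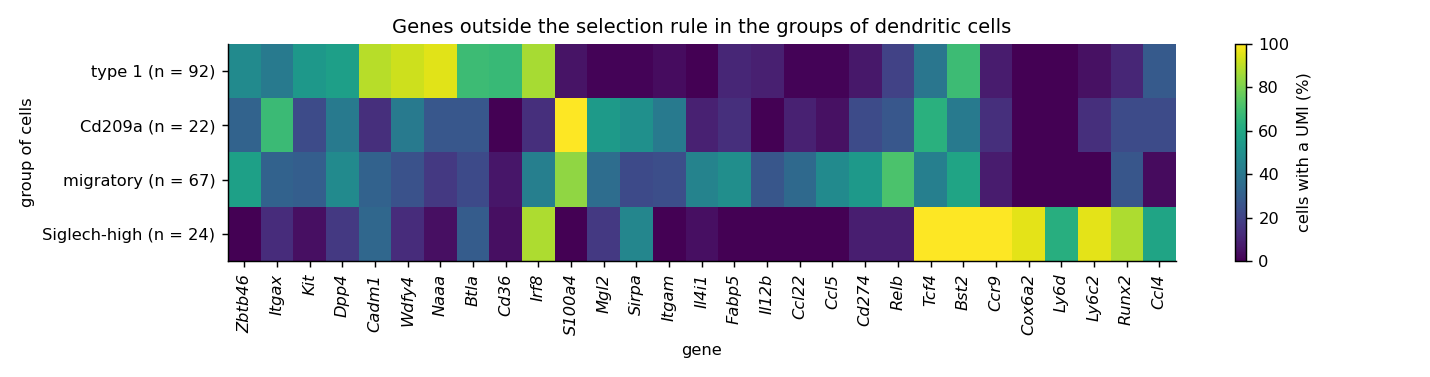
Percentage of cells with at least 1 UMI (colour) of 29 genes outside the selection rule in 4 groups of dendritic cells, after the 24 Siglech-high cells were taken out of the type 1 and Cd209a groups. The blocks of high values are Cadm1, Wdfy4 and Naaa in type 1 cells, S100a4 in Cd209a and migratory cells, and Tcf4, Bst2, Ccr9 and Cox6a2 in Siglech-high cells.

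Dendritic cells were next compared with the macrophages of the same tumours, which asks what sets the antigen-presenting cells apart within 1 tissue. For each tumour the UMIs of a class were added up, and edgeR compared the classes with the tumour as a block (5 pairs). Of 9130 genes tested outside the gates, 1153 were higher in dendritic cells (12.6%) and 1448 lower (15.9%), with a median log2 fold change of -0.10. The cells were picked on a few genes, so calls describe genes that accompany those. A gene can pass the low-count filter through the class in which it is high, so counts within lists are described and not tested. With macrophage sums thinned to the dendritic depth, 783 genes were higher and 889 lower, and 8 of 11 type 1, 1 of 6 type 2, 1 of 13 chemokine and 0 of 4 pattern recognition genes tested were higher.

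*Zbtb46* (chr2:181387762-181459426) stood at 116, 165, 152, 124 and 124 CPM (counts per 1e6 UMIs of the class in that tumour) in dendritic cells of BP replicates 1 and 2, MP, MP+BP and PD+MP. Macrophages held 6.63, 5.42, 4.87, 5.004 and 2.44 CPM. The values did not overlap, and the log2 fold change was 4.93 ± 0.27 (SE, n = 5 pairs, edgeR adjusted p = 1.6e-10). Of the 10 general dendritic genes, 8 passed the low-count filter and all 8 were called higher, and the list median was 2.23. They were *Dpp4*, *Zbtb46*, *Kit*, *Cst3*, *Ciita*, *H2-Eb1*, *Itgax* (CD11c) and *Ccr2*. The rule asked for class II UMIs, so the class II pathway genes *Ciita* and *H2-Eb1* are no independent evidence. The call for *Ccr2* was lost with at least 3 of the 7 markers (edgeR adjusted p = 0.273).

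The type 1 list had 13 genes called higher and 1 lower of 16 tested, with a median of 2.55. *Naaa*, a lysosomal amidase, was at 447, 598, 223, 546 and 714 CPM in dendritic cells against 14.6 to 35.8 in macrophages (log2 fold change 4.27 ± 0.25). *Wdfy4*, needed for cross-presentation, rose by 2.84 ± 0.21 on the log2 scale, and *Btla*, an inhibitory receptor, by 7.68 ± 0.37. *Batf3* and *Irf8*, the factors on which type 1 cells depend, rose by 2.11 ± 0.39 and 0.90 ± 0.30. For *Irf8* the edgeR adjusted p was 0.031, but 0.071 without MP, 0.186 without PD+MP, 0.051 without the tumour block and 0.267 with DESeq2. *Irf8* ran from 41.2 CPM in BP replicate 2 to 914 in PD+MP. The 7 dendritic cells of BP replicate 2 held 48529 UMIs in all, so its low levels, here and below, rest on few counts. *Rab7b* was the 1 type 1 gene called lower, at -0.79 ± 0.27. That call was lost without BP replicate 1, BP replicate 2, MP or MP+BP (edgeR adjusted p of 0.068, 0.117, 0.084 and 0.078) or with at least 3 of the 7 markers (0.299). *Cadm1*, which macrophages held at 553 ± 102 CPM (SD, n = 5), was at 0.21 ± 0.18 and was not called (edgeR adjusted p = 0.43). It was called higher with at least 3 of the 7 markers (0.59, edgeR adjusted p = 0.030).

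Among type 2 genes 8 were higher and 3 lower of 12 tested. The lectin *Mgl2* was at 145, 20.6, 235, 297 and 9.75 CPM, low in BP replicate 2 and PD+MP, against 1.00 to 33.5 in macrophages (3.85 ± 0.42). The transcription factor *Irf4* rose by 2.73 ± 0.48, but was not called when at least 3 of the 7 markers were required (2.01, edgeR adjusted p = 0.059). The 3 lower genes were *Sirpa*, *Cd300a* and *Itgam* (CD11b), which macrophages also express, and *Sirpa* fell by 2.71 ± 0.32 on the log2 scale. The call for *Itgam* was lost without BP replicate 2 and without PD+MP (edgeR adjusted p of 0.077 and 0.125), and without the tumour block (0.086).

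Of 12 class II pathway genes tested outside the rule, 8 were called higher and 1, the protease *Ctss*, lower (median 1.40). The rule asked for class II UMIs in dendritic cells, and kept 88 cells out by that alone, while macrophages were not chosen on them, so this count is no independent evidence. *H2-Oa* and *H2-Ob*, which encode the inhibitor of the peptide editor H2-DM, rose by 6.33 ± 0.45 and 4.33 ± 0.27, and the editor genes *H2-DMa* and *H2-DMb1* by 1.23 ± 0.17 and 1.57 ± 0.22. *H2-DMb2* was at 60.1 to 227 CPM in the 5 dendritic sums and at 2.26 to 6.16 in macrophages. *Ciita*, the master activator of class II genes, rose by 2.18 ± 0.46 but had no UMI in the 7 dendritic cells of BP replicate 2. In the class I pathway 8 of 17 were higher and 0 lower (2 lower without scaling factors), and the higher genes were processing genes such as *Tap1*, *Tap2*, *Psmb8* and *Psmb9*. The class I chains themselves were not called, with *H2-K1* at 0.32 ± 0.15 (adjusted p = 0.12) and *B2m* at -0.28 ± 0.15 (adjusted p = 0.17). *B2m* was called lower without scaling factors (-0.37, edgeR adjusted p = 0.041) and without a filter on low counts (-0.52, edgeR adjusted p = 0.0041).

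Costimulation and checkpoint genes were called higher for 7 and lower for 2 of 12. *Cd80* was at 327, 227, 401, 227 and 89.4 CPM against 23.9 to 50.4 in macrophages (2.78 ± 0.24). *Cd274* (PD-L1) rose by 2.29 ± 0.30 and *Cd40* by 2.05 ± 0.36, whereas *Cd86*, at 480 ± 130 CPM (SD, n = 5) in dendritic cells and 540 ± 143 in macrophages, was not called (-0.06 ± 0.16, edgeR adjusted p = 0.84).

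Macrophages held more of most chemokines, with 13 of 17 chemokine and receptor genes lower in dendritic cells and 3 higher, at a list median of -2.76. *Cx3cr1* fell by 3.83 ± 0.32, *Ccl3* by 4.51 ± 0.40 and *Cxcl10* by 3.57 ± 0.46 on the log2 scale. *Ccl12* had no UMI in dendritic cells and 4358 in macrophages, at least 97.4-fold lower against a floor of 3 counts over the group. The 3 higher genes were *Ccl22*, *Ccl5* and the receptor *Ccr2*, the last of which was not called when at least 3 of the 7 markers were required (0.86, edgeR adjusted p = 0.273). *Ccl22*, a ligand for regulatory T cells, was at 451, 20.6, 26.7, 185 and 52.0 CPM against at most 2.69 in macrophages (7.08 ± 0.49). Of 7 cytokines tested 4 were lower, *Il10*, *Tnf* and *Tgfb1* among them, and 2 were higher, *Il1b* being 1 of these (0.92 ± 0.21, but edgeR adjusted p = 0.109 without the tumour block). Without MP or without MP+BP 1 was higher. Of 14 pattern recognition genes 9 were lower, with *Tlr4* at -3.26 ± 0.45, and only *Tlr3*, the double-stranded RNA sensor of type 1 cells, was higher (2.33 ± 0.33).

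Of 19 dendritic transcription factors, 10 were higher and 3 lower. Of the remaining lists, migratory genes were 9 higher and 4 lower of 17, plasmacytoid genes 4 and 2 of 10, cell cycle genes 1 and 0 of 18, and monocyte genes 3 and 2 of 11. Without BP replicate 2 these were 14 and 4 migratory and 7 and 2 plasmacytoid genes, without PD+MP 1 and 2 plasmacytoid genes, and without *Siglech*-high cells 1 and 4. All 16 macrophage genes tested were lower, and their summed level was 306 to 707 CPM in dendritic cells against 26938 to 39470 in macrophages.

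**Figure D3:**
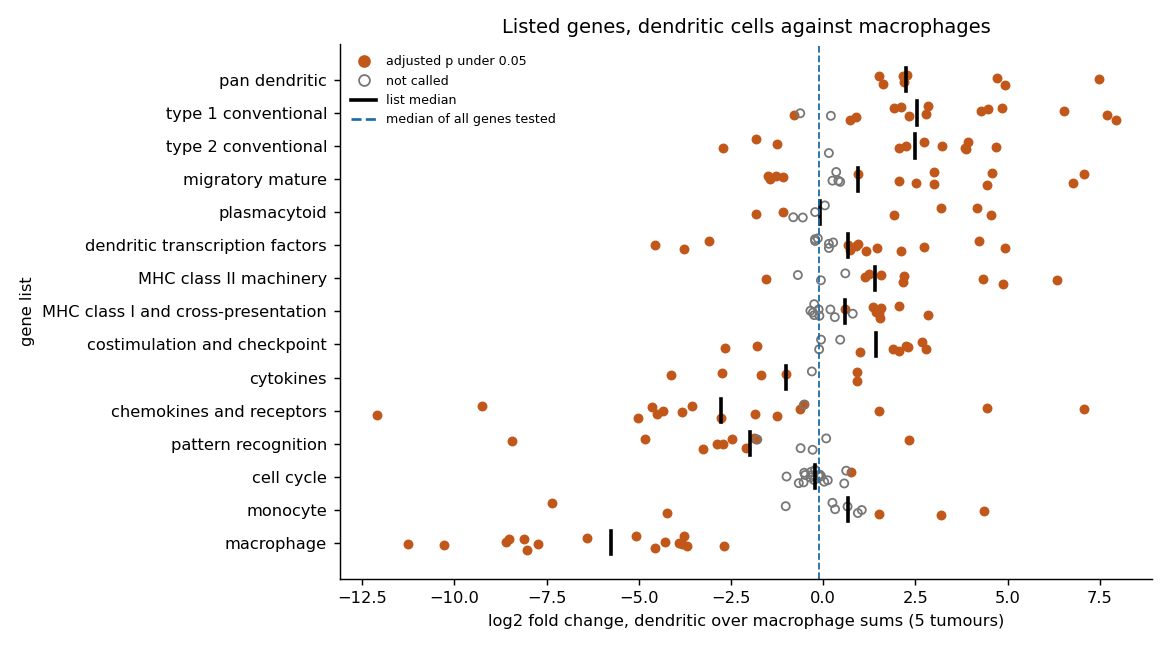
Log2 fold change of each listed gene that passed the low-count filter, dendritic over macrophage sums in 5 tumours (x axis), by gene list (y axis), with genes called by edgeR filled and list medians as black bars. The general dendritic, type 1 and type 2 lists have medians of 2.23 to 2.55, while chemokines lie at -2.76 and macrophage genes at -5.75, against -0.10 for all genes.

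Outside the lists, the largest changes shared by all 5 tumours included *Zfp366*, which encodes the dendritic factor DC-SCRIPT, at 7.40 ± 0.34, the serotonin receptor gene *Htr7* at 7.69 ± 0.33 and the lipid receptor gene *P2ry10* at 7.58 ± 0.39. *Htr7* had 386 UMIs in the 216 dendritic cells and 25 in the 3585 macrophages. *Cldn1* had 77 and 3, a 383-fold difference in pooled level with a 95% exact counting interval of 126 to 1898. On the lower side, *Slc40a1* (ferroportin, the iron exporter), *Msr1* (a scavenger receptor) and *Spic* (a macrophage transcription factor) had no UMI in dendritic cells against 6289, 2641 and 1031 in macrophages, at least 141-fold, 59.0-fold and 23.0-fold lower.

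Monocyte-like cells, another low-C1q class, were compared next. They were 200 cells with *Csf1r* and *Ptprc* and at most 3 UMIs of *S100a8* and *S100a9* together that did not meet the dendritic rule. Of 3494 genes tested, 339 were higher in dendritic cells (9.7%) and 348 lower (9.96%). Without scaling factors beyond the library totals these were 247 and 424. In the type 1 list 11 of 12 were higher and 0 lower (1 lower without MP), with *Cadm1* at 3.22 ± 0.35 and *Naaa* at 2.52 ± 0.27. Of 9 monocyte genes tested 8 were lower, among them *Lyz2* at -3.83 ± 0.26 and *Fn1* at -4.46 ± 0.55. The rule admitted cells on *Xcr1* and *Clec9a* and the other class on *Csf1r*. The type 1 and monocyte counts are thus no independent evidence. Of 9 type 2 genes 0 were higher and 3 lower (*Itgam*, *Sirpa* and *Cd300a*). The gate does not keep dendritic cells with only 1 of the 7 markers out of the monocyte-like class. Of that class 7.5% held a *Cd209a* UMI, against 0.669% of macrophages, so it may hold type 2 cells, which was not tested. Outside the lists, *P3h2*, a collagen prolyl hydroxylase, was highest (5.87 ± 0.48, 371 against 4 UMIs), and *Hp*, haptoglobin, had 0 UMIs against 122, at least 62.1-fold lower.

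Migratory cells were then set against the other dendritic cells of the same tumour, in the 4 tumours with at least 5 cells of each (BP replicate 2 had 2 migratory cells and was not fitted). Of 1952 genes tested, 168 were higher in migratory cells (8.61%) and 82 lower (4.2%). In the migratory list 12 of 14 were called higher and 0 lower, at a median of 3.06. The group was drawn on *Ccr7* and *Fscn1*, so this count is no independent evidence. Without BP replicate 1, 113 genes were higher and 45 lower. *Il12b*, the shared subunit of interleukins 12 and 23, was at 950, 398, 366 and 380 CPM in migratory cells of BP replicate 1, MP, MP+BP and PD+MP against 18.7, 0, 21.1 and 9.51 in the others (5.39 ± 0.46, edgeR adjusted p = 0.00025). In BP replicate 1 a single cell held 65 of the 128 *Il12b* UMIs. *Il4i1*, an amino acid oxidase, rose by 6.10 ± 0.51, and *Fabp5*, a fatty acid carrier, by 6.02 ± 0.57.

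*Cd274* was at 230, 250, 215 and 581 CPM in migratory cells and at 84.1, 30.6, 12.7 and 20.9 in the others, and the ranges did not overlap (3.49 ± 0.53, edgeR adjusted p = 0.0041). *Il1b* rose by 2.09 ± 0.20 and *Relb*, an NF-kB subunit of maturation, by 3.04 ± 0.54. Type 1 genes were lower for 8 of 10 and higher for 0, with *Naaa* at -2.79 ± 0.32 and *Wdfy4* at -2.22 ± 0.33. Cells drawn as type 1 by *Xcr1* or *Clec9a* were 9 of 13, 14 of 31, 22 of 34 and 51 of 66 of the other dendritic cells. These counts are for BP replicate 1, MP, MP+BP and PD+MP. The lower type 1 genes are thus no independent evidence, and a loss of them on maturation was not tested. Without MP+BP 4 of 11 type 1 genes were lower, and without the tumour block 5 of 10. Outside the lists, *Mreg* (5.06 ± 0.36), *Cd63* (4.11 ± 0.28), *Swap70* (3.27 ± 0.41) and *Stat4* (3.11 ± 0.38) were higher, and *Mpeg1* (-2.30 ± 0.44) and *Zfp36l2* (-2.47 ± 0.34) lower.

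Chemokines of migratory cells differed between tumours. *Ccl5* was at 995, 5050.1, 64.6 and 13560.0 CPM in BP replicate 1, MP, MP+BP and PD+MP, from 134, 546, 6 and 1214 UMIs, and at 0 to 57.1 CPM in the other dendritic cells of these tumours. PD+MP was highest and MP+BP lowest. *Ccl22* was ordered otherwise, at 802, 64.7, 624 and 357 CPM, as was *Ccl17*, at 215, 0, 506 and 67.0. At least 10 *Ccl5* UMIs were held by 12 of 21 migratory cells in PD+MP and 3 of 16 in MP. Single cells weighed on these sums, with 1 cell holding 510 of the 1214 *Ccl5* UMIs of PD+MP, 1 holding 396 of the 546 of MP and 1 holding 71 of the 108 *Ccl22* UMIs of BP replicate 1.

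**Figure D4:**
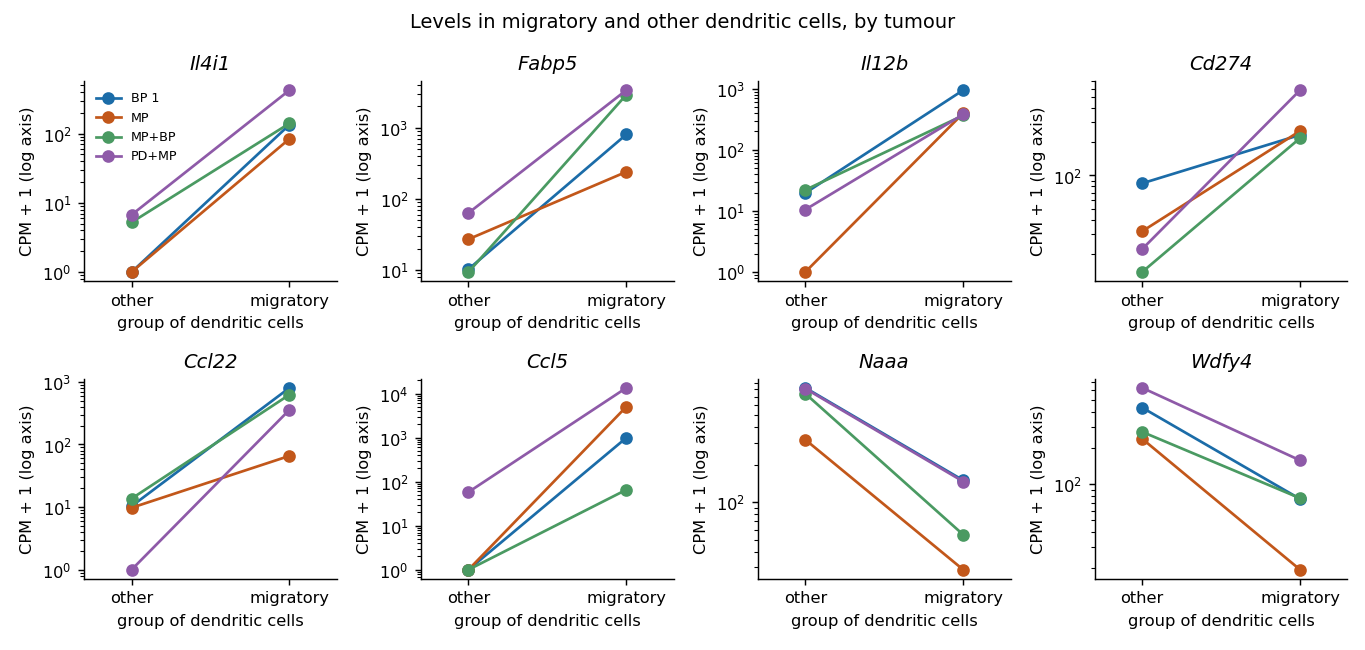
CPM plus 1 (log axis) of 8 genes in the migratory and the other dendritic cells of 4 tumours, each line joining the sums of 1 tumour. Il4i1, Fabp5, Il12b and Cd274 rise in every tumour and Naaa and Wdfy4 fall, while Ccl5 in migratory cells spans 64.6 to 13560.0 CPM.

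Of the migratory cells 32 held *Fscn1*, an actin bundler of mature dendritic cells, and 35 did not. This split and the genes given for it were chosen after the values were seen, so they are described without a test. *Fabp5* was detected in 27 of 32 and 6 of 35, *Ccl5* in 25 and 7, *Socs2* in 25 and 3, *Anxa3* in 25 and 4, *Il4i1* in 24 and 6, and *Cd274* in 22 and 14. The cells without *Fscn1* held more of the type 2 genes, with *Mgl2* in 22 of 35 against 2 of 32 and *Itgam* in 15 against 1. For these 35 cells the name migratory rests on *Ccr7*, as most lacked the migratory genes just given. The rule shaped this split, since a *Ccr7* cell without *Fscn1* needed another of the 7 markers to be a member, and *Cd209a* occurred with *Ccr7* in 28 members and with *Fscn1* in 3. The cells without *Fscn1* also held more class II machinery, with *H2-DMa* in 31 against 10, and more of the checkpoint gene *Havcr2* (TIM-3), in 26 against 2. Median depth was 4218.5 UMIs with and 6246 without *Fscn1*, so the genes seen more often with *Fscn1* were so at lower depth. Cells with *Fscn1* numbered 8 of 14 in BP replicate 1, 0 of 2 in BP replicate 2, 4 of 16 in MP, 2 of 14 in MP+BP and 18 of 21 in PD+MP. The detection counts above pool cells over tumours. Differences that go with *Fscn1* therefore cannot be told apart from differences between tumours.

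Type 1 cells were set against *Cd209a* cells in MP, MP+BP and PD+MP, the 3 tumours with 5 or more of each. The groups were drawn on *Xcr1*, *Clec9a* and *Cd209a*, so counts within the type 1 and type 2 lists are no independent evidence. Of 1548 genes tested, 103 were higher in type 1 (6.65%) and 122 lower (7.88%). These counts were 59 and 67 without MP, 63 and 82 without PD+MP, 48 and 66 with DESeq2, and 76 and 164 without scaling factors. *S100a4*, a calcium-binding protein, was at 1591, 2027 and 1941 CPM in the *Cd209a* cells and at 0, 6.01 and 19.97 in type 1 cells (-7.13 ± 0.42, edgeR adjusted p = 7.7e-07). *Cst3*, the protease inhibitor cystatin C, was 15049 to 19896 CPM in type 1 cells against 2022 to 3080.3 (2.84 ± 0.15). Of 10 type 1 genes 7 were higher and 0 lower, with *Cadm1* at 4.18 ± 0.45, and *Cd36*, a scavenger receptor, had 149 UMIs in type 1 and none in *Cd209a* cells, at least 9.37-fold higher. *P3h2* had 309 and 0, at least 19.4-fold higher. Of 4 type 2 genes 3 were lower (5 of 6 without PD+MP), with *Sirpa* at 30 UMIs against 3, and *Fcer1g* (-3.72 ± 0.40), *S100a6* (-3.80 ± 0.52) and *Bach2* (-3.52 ± 0.38) were among the genes outside the lists.

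In this comparison 5 of 6 plasmacytoid genes were called lower in type 1 cells (*Ccr9*, *Tcf4*, *Cox6a2*, *Ly6c2* and *Bst2*), and 5 of the 24 *Cd209a* cells fitted were *Siglech*-high. With doublets removed 3 of 5 were lower and without the tumour block 2 of 6, and without PD+MP the edgeR adjusted p of *Ccr9* was 0.080. With *Siglech*-high cells left out, which leaves MP and MP+BP in the fit, 1 of 2 plasmacytoid genes tested was called lower, while 7 of 10 type 1 genes stayed higher and 5 of 6 type 2 genes were lower. The next counts are not of that fit but pool the cells of all tumours, without *Siglech*-high cells. *S100a4* was seen in 22 of 22 *Cd209a* cells and in 5 of 92 type 1 cells. *Mgl2* was in 12 and 1, *Irf8* in 3 and 80 and *Zeb2* in 16 and 3. Median depths were 6035 and 8606 UMIs per cell in the groups as first drawn. Of the 92 type 1 cells, 46 came from PD+MP.

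Expression by label was tested on dendritic sums, with 3 tumours on the BP side and 2 on the other. Of 4809 genes tested, 1 was called (0.0208%), and 181 had an unadjusted p under 0.05. The called gene was *Ccl4* (chr11:83662584-83664683), a chemokine that attracts T and NK cells. It was at 12.4 CPM in BP replicate 1, 41.2 in BP replicate 2 and 39.4 in MP+BP, and at 523 in MP and 387 in PD+MP, so the groups did not overlap (-3.95 ± 0.48, adjusted p = 0.020). Without BP replicate 1, BP replicate 2 or MP+BP it was not called (edgeR adjusted p of 0.0996, 0.237 and 0.081), and without MP 33 genes were called. Of its 432 UMIs, 336 lay in the 24 *Siglech*-high cells, and 1 cell of PD+MP held 105 and 1 of MP 96. Without *Siglech*-high cells *Ccl4* was at 13.1, 41.2, 56.6, 37.1 and 115 CPM in BP replicate 1, BP replicate 2, MP, MP+BP and PD+MP, and no gene was called by edgeR. DESeq2 called 2 genes with all cells included. The part of *Siglech*-high cells in the difference by label was not tested.

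**Figure D5:**
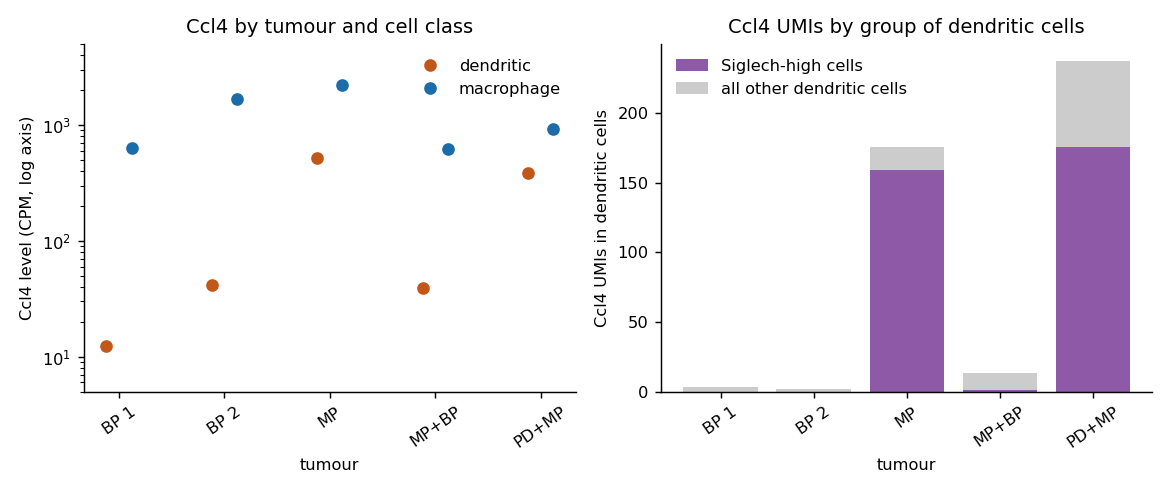
Ccl4 level in CPM (log axis) in dendritic cells and macrophages of each tumour (left), and Ccl4 UMIs in dendritic cells split into Siglech-high and all other cells (right). MP and PD+MP are highest among dendritic sums, at 523 and 387 CPM, and 159 of 176 and 176 of 238 UMIs there lie in Siglech-high cells.

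Some dendritic cells carried genes of cell division. At least 3 UMIs summed over *Mki67* and *Top2a*, markers of dividing cells, were held by 22 members, 15 of them type 1, 4 migratory and 2 *Cd209a*. Among type 1 cells these were 11 of 51 in PD+MP and 3 of 14 in MP. Levels of the summed cell cycle list were 1121 to 3152 CPM in dendritic cells and 1291 to 2953 in macrophages.

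RNA of other cells was low in most members. B cell genes summed to 0 to 70.3 CPM, with *Pax5* at 0, and T and NK genes to 20.6 to 190 CPM, with *Cd3g*, *Nkg7* and *Lck* at 0. Tumour cell genes summed to 82.4 to 261 CPM, against 100 to 214 in macrophages. Fibroblast and mural genes ran from 0 to 1066 CPM. The highest value came from PD+MP, where 1 type 1 cell with a doublet score in the highest range held 638 of the 651 UMIs of its group. In BP replicate 1 a migratory cell held 88 of the 90 UMIs of its group, and its doublet score was not in that range. Of the 216 members, 8 (3.7%) were among the highest doublet scores, against 8.39% of kept cells.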

How the data were processed

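Libraries of single cells from 5 tumours were analysed from the cell-called matrices. Per the labels and methods, the authors aligned reads to mm10 and counted UMIs with Cell Ranger, and each deposited matrix holds unnormalized UMI counts (whole numbers) of genes by cells. Called cells held 89996321 to 118649103 UMIs per tumour, and dendritic sums held 241771, 48529, 336526, 329857 and 615214 in BP replicates 1 and 2, MP, MP+BP and PD+MP, so BP replicate 2 gives the least precise values. The members and gene lists were chosen with earlier results of these data known.

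Cells with at least 750 genes and at most 25% mitochondrial UMIs were kept. Macrophages were cells with at least 10 C1q UMIs. Of the barcodes, 231 (0.449%) occurred in more than 1 library, 4 members had such a barcode, and no barcode was shared by members of different libraries. Doublets were not removed. As an alternative, the highest Scrublet scores (scanpy 1.11.5) were removed, up to 0.8% per 1000 cells. Counts were summed per tumour and class, where a class of a tumour needed at least 5 cells, and tested with edgeR 4.0.16 (filterByExpr, TMM scaling, quasi-likelihood F-test, Benjamini-Hochberg over all genes tested, threshold 0.05, R 4.3.3). Contrasts within tumours had the tumour as a block, which pairs classes of the same tumour. A call means an adjusted p under 0.05, and ± after a log2 fold change is its SE. DESeq2 1.42.0 was an alternative. The code was tested on simulated counts. Genes used to draw the groups were left out of counts of calls. Outside the lists, named genes came from the 10 highest and 10 lowest log2 fold changes that went 1 way in every tumour and had at least 20 UMIs. Genes of *Siglech*-high cells and of migratory cells with *Fscn1* were chosen after their values were seen.

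Shares have exact Clopper-Pearson intervals (95%) that cover counting error only, and were compared by exact permutation over tumours (scipy 1.17.1). A permutation p is the fraction of label arrangements with a difference at least as large. With all 5 tumours there are 10 arrangements, so it cannot fall below 0.1. The tests take the tumours as independent, which the 2 BP tumours may not be. Coordinates are from the GENCODE annotation of GRCm38. In the lists 3 symbols had no match in the files and were not used here.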

Additional observations from a re-analysis of the deposited data

Results flagged for a closer look

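The dendritic-against-macrophage difference of *Ccl4* differed between tumours with and without BP in the label, by a test of that difference itself. The interaction was -3.08 ± 0.47 on the log2 scale (edgeR adjusted p = 0.012), the 1 gene called of 9130 tested. It was not called by DESeq2 (-3.10, adjusted p = 0.083), without BP replicate 2 (-2.87, edgeR adjusted p = 1.0) or without *Siglech*-high cells (-0.81, edgeR adjusted p = 1.0), a setting chosen after seeing the data.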

How the results depend on the processing

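The sign of the difference in group shares by BP label depended on how cells were counted. With at least 3 of the 7 markers the type 1 share differed by 8.36 points, the *Cd209a* share by -8.31 and the *Siglech*-only share by 0.0, and with cells thinned to 2000 UMIs the type 1 share differed by 0.20 and the migratory share by -10.2. With each tumour left out in turn, the type 1 difference ran from -17.9 to 10.9 points, the *Cd209a* difference from -3.74 to 9.66 and the migratory difference from -0.221 to 12.4. The difference in the share of kept cells stayed negative in all 11 alternatives, at -0.700 to -0.280 points with a tumour left out. Thinning macrophage sums to the dendritic depth gave 1672 called genes, against 2601 at full depth. Without a filter on low counts 1324 genes were called against monocyte-like cells, 543 for migratory cells, 423 for type 1 against *Cd209a* cells, 89 by BP label and 13 for the interaction. DESeq2 called 114 for type 1 against *Cd209a* cells, 2 by BP label and 0 for the interaction, where edgeR had 306 genes at an unadjusted p under 0.05. Removing doublets gave 3 genes by BP label. Leaving out *Siglech*-high cells, a setting chosen after seeing the data, gave 0 by BP label and 0 for the interaction. With each tumour left out, 158 to 215 genes were called for migratory cells, 126 to 224 for type 1 against *Cd209a* cells, 0 to 33 by BP label and 0 to 43 for the interaction. Tumours absent from a fit could not be left out of it (BP replicate 2 for migratory cells, both BP tumours for type 1 against *Cd209a* cells). Without scaling factors the median over all genes (log2 fold change) moved from -0.10 to -0.22 against macrophages, from -0.01 to -0.15 against monocyte-like cells, from -0.02 to -0.12 for migratory cells and from -0.0017 to -0.16 for type 1 against *Cd209a* cells. Without the tumour block 2663, 579, 214 and 158 genes were called in these 4 contrasts. Of 1177 alternative values of named genes, 1146 kept their side of the threshold, 28 lost the call and 3 gained one. Among genes called in either fit 0 turned sign. Sign changes of genes called in neither fit were not counted. The cause of these changes was not tested.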
